A study of Arabidopsis thaliana with 6 samples.

Results

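The ARGONAUTE family of Arabidopsis thaliana was followed here as 10 genes, AGO1 to AGO10, taken by their locus identifiers from the 27655 genes counted in each library. All 10 were found, and 8 of them passed the filter on low counts. Transcripts came from RNA sequencing of cells released as male meiocytes from anthers of stages 4 to 7. The collections were made from knu-2 plants, which carry a mutant allele of the zinc finger gene KNUCKLES (KNU), and from plants of the strain Ler, 3 libraries each. No other allele, treatment or plant age is given for either genotype, and the labels do not say what kind of mutation knu-2 is, so the contrast is that of knu-2 plants with Ler plants.

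ARGONAUTE proteins carry small RNAs and use them as guides to matching transcripts or chromatin. AGO1, AGO5 and AGO10 form a clade of related proteins that work mainly with microRNAs. AGO2, AGO3 and AGO7 form another, with parts in antiviral silencing and in the making of trans-acting small interfering RNAs. AGO4, AGO6, AGO8 and AGO9 make up the remaining clade, whose best known members guide DNA methylation to transposons and repeats. In the germline of flowering plants, rice MEL1, a relative of AGO5, is needed for meiosis, and AGO9 is known from the Arabidopsis ovule, where it limits the cells that become female germ cells.

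The libraries held 18070435 to 23199970 counts in knu-2 and 19827980 to 27995200 counts in Ler. Values are CPM, the count of a gene relative to its library's total on a common scale, adjusted by the trimmed mean of M-values. KNU itself was at 13.8, 7.49 and 4.62 CPM in knu-2, against 75.1, 68.1 and 87.2 CPM in Ler, without overlap (log2 fold change -3.16, edgeR adjusted p = 0.000128). The cells were pressed out of the anthers, with no sorting step named. Of 18 meiocyte markers, 15 were called lower in knu-2 and 1 was called higher, and their summed level was 1281 to 2342 CPM in knu-2, against 5926 to 7162 CPM in Ler. Their mean log2 level relative to Ler was -1.91, -3.42 and -3.28 in knu-2 replicates 1 to 3, so replicate 1 lay nearest to Ler. The tapetum lines the anther locule and nourishes the developing meiocytes. Of its 17 markers, 12 were tested, 9 were called higher and 1 lower, and the sum was 1896 to 2665 CPM in knu-2, against 407 to 549 CPM in Ler. MS1, CYP703A2, LTP12 and MS2 of that list had no count in any library. Markers of photosynthetic tissue summed to 949 to 2477 CPM in knu-2, against 1111 to 1689.7 CPM in Ler, and none of 9 was called by edgeR, DESeq2 or limma-voom, with 0 at an unadjusted p under 0.05. Pollen markers summed to 19.2 to 76.0 CPM in knu-2, against 67.7 to 136 CPM in Ler, with 1 of 10 called, lower. For comparison, 48.1% of all genes tested were called, 23.6% higher and 24.4% lower. The part of these markers' cells in the differences reported here was not tested. In bulk RNA, fewer cells of a type and less RNA per cell cannot be told apart.

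Several of these transcripts are themselves known targets of microRNAs, and their sites are shown because they link the family to the small RNAs it carries. The sequences were read from the TAIR10.1 genome, which is that of the strain Columbia, and gene features come from its RefSeq annotation. The microRNAs are written 5′ to 3′ with the seed, bases 2 to 8, in capitals, and the sites are written 5′ to 3′ with the bases opposite the seed in capitals. A site was listed where at most 4 of 21 bases were unpaired, with a G:U pair counted as 0.5 of an unpaired base. Among the 10 ARGONAUTE transcripts, AGO1 alone had a site for miR168a and AGO2 and AGO3 alone had sites for miR403 by this rule.
miR168a: uCGCUUGGugcaggucgggaa
AGO1 site: ttcccgagctgcaTCAAGCTa
miR403: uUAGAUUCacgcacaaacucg
AGO2 site: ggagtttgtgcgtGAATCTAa
AGO3 site: gatgtttgtgcgtGAATCTAa
miR166a: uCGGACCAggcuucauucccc
PHB site: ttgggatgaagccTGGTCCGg
REV site: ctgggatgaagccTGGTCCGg
CNA site: ctggaatgaagccTGGTCCGg
The AGO1 site lies at chr1:17891529-17891549 on the minus strand, in coding sequence of exon 2 of 22, with 18 Watson-Crick pairs, 1 G:U pair and 2 unpaired bases. The AGO2 site, at chr1:11185223-11185243 on the plus strand, is in the 3′ UTR in exon 3 of 3 and pairs at 20 of 21 bases. The AGO3 site, at chr1:11192399-11192419 on the plus strand, is also in the 3′ UTR and pairs at 18. The miR166a sites belong to transcripts of the class III homeodomain leucine zipper (HD-ZIP III) genes. AGO10 is known to bind miR165 and miR166 and keep them from these transcripts. Each HD-ZIP III site lies in coding sequence across the junction of a pair of exons, as in PHB, where it spans exons 4 and 5 on chromosome 2 between 14642530 and 14642666. The PHV site has the letters of the PHB site, and the ATHB8 site those of the REV site. Levels of the microRNAs were not measured in these libraries.

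Of the 8 tested members, 3 rose and 1 fell in knu-2 and 4 were not called. That is 50.0% of them, where 48.1% of the 18422 genes tested were called, 23.6% higher and 24.4% lower, so the share of members called was near the background. AGO10, AGO5 and AGO4 were the members that rose, and AGO6 was the member that fell. In these 4 the 3 libraries of knu-2 lay apart from the 3 of Ler, which was so in 59.1% of all genes tested. A gene was called at an adjusted p under 0.05 in edgeR's quasi-likelihood test with Benjamini-Hochberg adjustment over all genes, and every adjusted p comes from that test unless another is named.

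**Figure D1:**
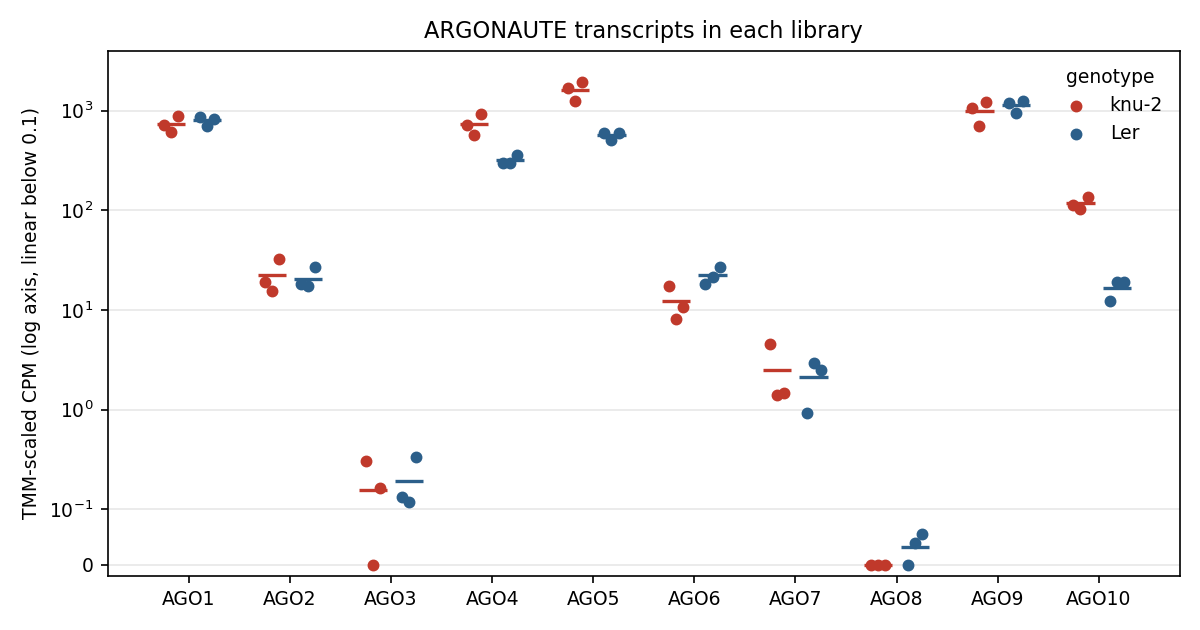
Scaled CPM of the 10 ARGONAUTE genes in each library, on a log axis that is linear below 0.1, with knu-2 (red) left of Ler (blue), points for the 3 libraries of each genotype and bars for their means. AGO4, AGO5 and AGO10 in knu-2 lie above Ler and AGO6 lies below it, while AGO1, AGO2, AGO7 and AGO9 overlap and AGO3 and AGO8 lie at or near 0.

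The clade of AGO1, AGO5 and AGO10 held the largest rise. AGO10, the closest relative of AGO1 in the family, is known from the shoot meristem and from the inner side of leaf primordia. AGO10 was at 114, 103 and 136 CPM in knu-2 replicates 1 to 3, against 12.3, 18.9 and 19.3 CPM in Ler replicates 1 to 3. The lowest knu-2 library was above the highest Ler library by a wide margin. The means were 118 ± 16.7 CPM in knu-2 and 16.8 ± 3.94 CPM in Ler (SD, n = 3 each), which is 7.00-fold higher, with a log2 fold change of 2.81 (SE 0.22, adjusted p = 9.69e-06). AGO5 was the most abundant member in knu-2. AGO5 was at 1705, 1238 and 1956 CPM in knu-2 replicates 1 to 3, against 602, 508 and 602 CPM in Ler replicates 1 to 3. The ranges did not overlap. The means were 1633 ± 365 CPM in knu-2 and 570.5 ± 53.8 CPM in Ler (SD, n = 3 each), 2.86-fold higher, with a log2 fold change of 1.52 (SE 0.20, adjusted p = 0.000109). AGO1, the main effector of microRNAs, was not called. AGO1 was at 719, 605 and 875 CPM in knu-2 replicates 1 to 3, against 873, 703 and 833 CPM in Ler replicates 1 to 3. The libraries of the genotypes overlapped, and the log2 fold change of -0.13 (SE 0.18, adjusted p = 0.589) had a 95% interval of -0.53 to 0.27. With no scaling beyond library totals the fold change of AGO1 turned to 0.18 (adjusted p = 0.298). AGO1 lies at chr1:17885633-17892632 (AT1G48410) on the minus strand, AGO5 at chr2:11871378-11876989 (AT2G27880) and AGO10 at chr5:17610744-17616907 (AT5G43810), both on the plus strand. In the same libraries, 9 of 12 tested tapetum markers were called higher and 1 lower in knu-2. Of 18 meiocyte markers, 15 were called lower and 1 higher. The part of the markers' cells in these ARGONAUTE differences was not tested.

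In the clade of AGO4, AGO6, AGO8 and AGO9, AGO4 rose and AGO6 fell. AGO4 binds small interfering RNAs of heterochromatin and acts in RNA-directed DNA methylation. AGO4 was at 724, 570.3 and 931 CPM in knu-2 replicates 1 to 3, against 302, 297 and 358 CPM in Ler replicates 1 to 3. All 3 knu-2 libraries were higher than all 3 Ler libraries. The means were 742 ± 181 CPM in knu-2 and 319 ± 33.9 CPM in Ler (SD, n = 3 each), 2.33-fold higher, with a log2 fold change of 1.22 (SE 0.20, adjusted p = 0.000468). AGO6 acts in the same pathway as AGO4. AGO6 was at 17.6, 8.13 and 10.8 CPM in knu-2 replicates 1 to 3, against 18.3, 21.6 and 26.8 CPM in Ler replicates 1 to 3. The highest knu-2 library, replicate 1, lay just below the lowest Ler library. The means were 12.2 ± 4.88 CPM in knu-2 and 22.2 ± 4.27 CPM in Ler (SD, n = 3 each), 1.83-fold lower, with a log2 fold change of -0.87 (SE 0.30, adjusted p = 0.0333). The call of AGO6 was lost without Ler replicate 2 (adjusted p = 0.073), Ler replicate 3 (0.122), knu-2 replicate 2 (0.0873) or knu-2 replicate 3 (0.0942). It was also lost with no scaling beyond library totals (0.136), and over all alternatives its adjusted p was 0.00408 to 0.136. AGO9 was the most abundant member in Ler and was not called. AGO9 was at 1075, 701 and 1213 CPM in knu-2 replicates 1 to 3, against 1192, 948 and 1247 CPM in Ler replicates 1 to 3. The libraries overlapped, and the log2 fold change of -0.18 (SE 0.22, adjusted p = 0.53) had a 95% interval of -0.66 to 0.30. It was 0.12 with no scaling beyond library totals and 0.02 without knu-2 replicate 2, not called in either case. AGO8, for which the reference gives no symbol, was not tested. It had no count in any knu-2 library and 0, 1 and 1 counts in Ler replicates 1 to 3, under the limit of 0.119 to 0.166 CPM that 3 counts allow in a library, so a difference was not detectable at this depth. AGO4 lies at chr2:11536502-11542391 (AT2G27040) and AGO6 at chr2:13971916-13977521 (AT2G32940), both on the minus strand, AGO9 at chr5:7192239-7198381 (AT5G21150) on the plus strand and AGO8 at chr5:7139817-7144272 (AT5G21030) on the minus strand.

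The clade of AGO2, AGO3 and AGO7 was low in both genotypes, and none of its members was called. AGO2 is known for defence against viruses and for a part in the repair of DNA breaks. AGO2 was at 19.2, 15.5 and 32.4 CPM in knu-2 replicates 1 to 3, against 18.1, 17.2 and 26.7 CPM in Ler replicates 1 to 3. Replicate 3 was the highest library in each genotype, and the ranges overlapped. Its log2 fold change was 0.12 (SE 0.30, adjusted p = 0.779), with a 95% interval of -0.54 to 0.77, and it was -0.26 without knu-2 replicate 3 and -0.01 without Ler replicate 2. AGO7 pairs with miR390 to start the trans-acting small interfering RNAs that act on ARF3 and ARF4. AGO7 was at 4.54, 1.42 and 1.46 CPM in knu-2 replicates 1 to 3, against 0.923, 2.92 and 2.49 CPM in Ler replicates 1 to 3, from 89, 31 and 36 counts in knu-2 and 21, 74 and 45 counts in Ler. The highest and the next to lowest value both came from knu-2, so the ranges overlapped. Its log2 fold change was 0.22 (SE 0.73, adjusted p = 0.828), with a 95% interval of -1.38 to 1.83 that reaches far to either side of 0. Without knu-2 replicate 1 the value was -0.57 and without Ler replicate 1 it was -0.14, neither of them called. AGO3 had 6, 0 and 4 counts in knu-2 replicates 1 to 3, against 3, 3 and 6 counts in Ler replicates 1 to 3, and was not tested. AGO2 at chr1:11181504-11185396 (AT1G31280) and AGO3 at chr1:11188120-11192585 (AT1G31290) lie on the plus strand with 2723 bases between them, and AGO7 lies at chr1:26101407-26105328 (AT1G69440) on the minus strand.

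Reads of near-identical genes could be split or misplaced, so the coding sequences were compared. The most alike of the 45 pairs were AGO2 and AGO3 at 80.9% identity over aligned bases and AGO8 and AGO9 at 77.5%. The longest stretch of identical letters in their transcripts was 42 bases for AGO2 and AGO3 and 41 bases for AGO8 and AGO9, and in every other pair it was at most 26 bases. AGO3 and AGO8, the low partner of each pair, had few counts, and no label or file says how reads matching both genes of a pair were counted. No member overlaps another annotated gene on either strand. All 10 deposited gene lengths equalled the merged exon length in the reference annotation.

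**Figure D2:**
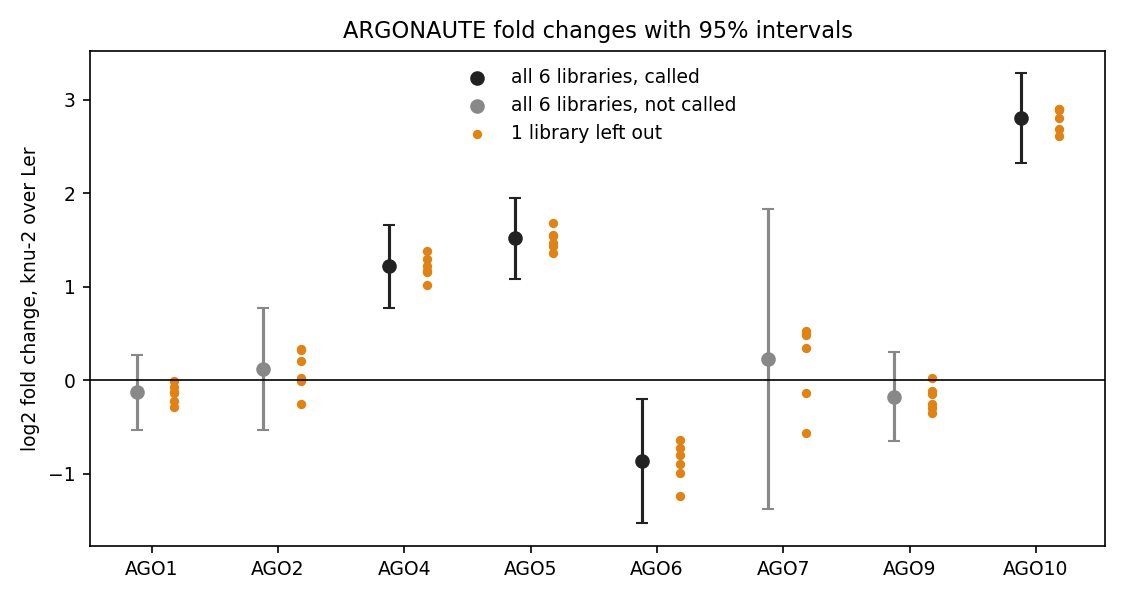
Log2 fold change of knu-2 over Ler for the 8 tested ARGONAUTE genes with 95% intervals from the fit of all 6 libraries, black where called and grey where not, beside the values with 1 library left out in orange. AGO4, AGO5 and AGO10 lie above 0 in each case, and AGO6 lies below 0 with its interval close to the line.

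The summed level of the 10 genes was 4379, 3243 and 5157 CPM in knu-2, against 3018, 2517 and 3115 CPM in Ler, and the lowest knu-2 library lay just above the highest Ler library. The means were 4259 ± 963 CPM in knu-2 and 2883 ± 321 CPM in Ler (SD, n = 3 each, exact two-sided permutation p = 0.1), a ratio of 1.48. With 3 libraries against 3, 0.1 is the smallest p this test allows. As a share of the unscaled library totals the family took 0.471 ± 0.0777% in knu-2 and 0.258 ± 0.0287% in Ler (exact permutation p = 0.1 with n = 3 each). The difference of the means in CPM was 1376 with scaling and 2129.9 with no scaling beyond library totals. It was 1209.9 with DESeq2 size factors, where knu-2 and Ler libraries overlapped (exact permutation p = 0.2 with n = 3 each).

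Within the family, AGO5 was the leading transcript in knu-2 and AGO9 in Ler. Shares of the family's counts do not depend on scaling between libraries. AGO5 held 38.9, 38.2 and 37.9% in knu-2, against 19.9, 20.2 and 19.3% in Ler. The libraries of 1 genotype differed little beside the gap between the genotypes. AGO9 held 24.6, 21.6 and 23.5% in knu-2, against 39.5, 37.7 and 40.0% in Ler, and AGO1 held 16.4, 18.7 and 17.0% in knu-2, against 28.9, 27.9 and 26.7% in Ler. Both shares were lower in every knu-2 library than in any Ler library, while neither gene was called in CPM. The shares of a library add up to the whole, so higher shares of AGO5, AGO4 and AGO10 mean lower shares of other members. The shares are thus not independent of each other. AGO4 held 16.5, 17.6 and 18.1% in knu-2, against 10, 11.8 and 11.5% in Ler, and AGO10 held 2.61, 3.17 and 2.63% in knu-2, against 0.406, 0.750 and 0.619% in Ler. These shares were higher in every knu-2 library. AGO6 had a share of 0.288 ± 0.101% in knu-2 and 0.775 ± 0.145% in Ler (SD, n = 3 each). AGO2 was at 0.515 ± 0.1002% in knu-2 and 0.714 ± 0.132% in Ler, with overlap. AGO7 took at most 0.116% of the family in any library, AGO3 at most 0.0106% and AGO8 at most 0.00177%. Each of the 6 shares whose libraries did not overlap had an exact two-sided permutation p of 0.1, or 0.167 after Benjamini-Hochberg adjustment over the 10 members, and 0.1 is the smallest such p for 3 against 3. By clade, AGO1, AGO5 and AGO10 together held 58.5 ± 1.32% in knu-2 and 48.3 ± 1.40% in Ler. AGO4, AGO6, AGO8 and AGO9 together held 40.9 ± 1.27% in knu-2 and 50.9 ± 1.26% in Ler (SD, n = 3 each, exact permutation p = 0.1 for both).

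**Figure D3:**
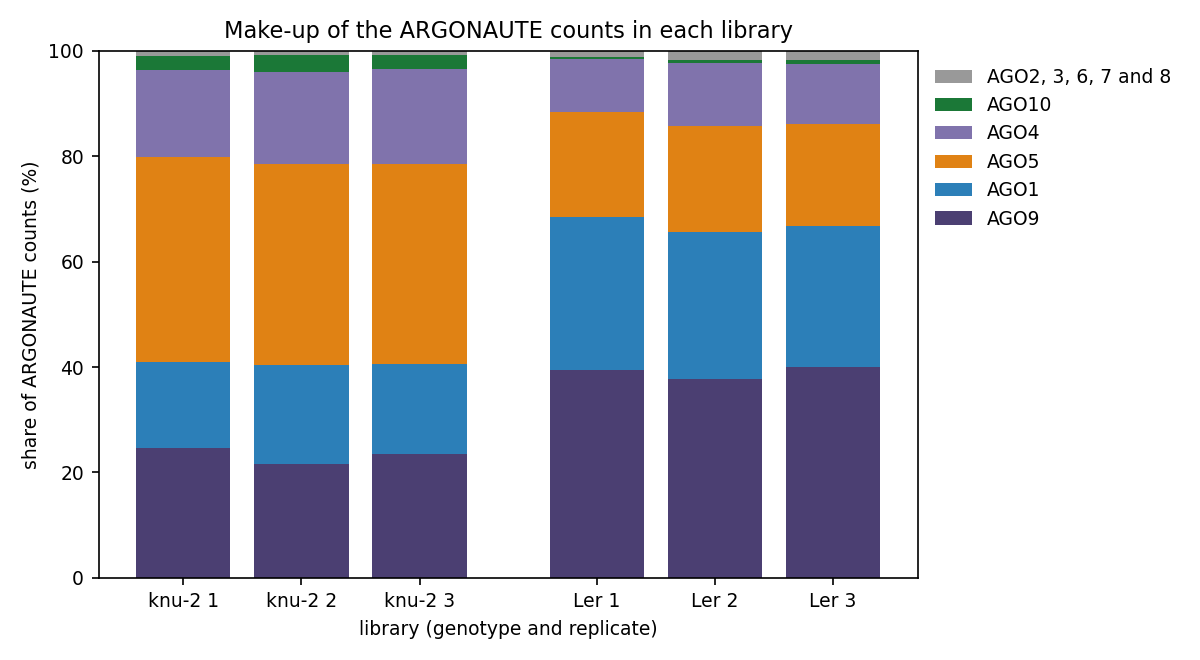
Share of the family's counts, in percent, held by each ARGONAUTE gene in each library, with the 3 knu-2 libraries left of the 3 Ler libraries and the 5 least abundant genes drawn together. The AGO5 band is 38.3% on average in knu-2 and 19.8% in Ler, and the bands of AGO9 and AGO1 are narrower in knu-2.

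To set members against each other, levels were divided by the deposited gene length and are given as CPM per kilobase. In knu-2 the order was AGO5, AGO9, AGO4, AGO1, AGO10, AGO2, AGO6, AGO7, AGO3 and AGO8. AGO5 averaged 483 and AGO9 324 CPM per kilobase in knu-2, with ranges of 366 to 579 and 228 to 395. The ranges of AGO5 and AGO9, of AGO9 and AGO4, and of AGO4 and AGO1 overlapped, although in each of the 3 libraries the order of these 4 was the same. AGO2 and AGO6 also overlapped, as did AGO3 and AGO8. In Ler the order was AGO9, AGO1, AGO5, AGO4, AGO6, AGO2, AGO10, AGO7, AGO3 and AGO8. AGO9 averaged 367, AGO1 221, AGO5 169 and AGO4 98.0 CPM per kilobase in Ler, and no neighbours among these 4 overlapped. The only neighbours whose ranges overlapped in Ler were AGO6 and AGO2. The last ranks rest on few counts, in Ler 3, 3 and 6 for AGO3 and 0, 1 and 1 for AGO8. Neither of these genes was tested. AGO10 stood at 27.8 ± 3.94 in knu-2 and 3.97 ± 0.932 in Ler CPM per kilobase, which puts it above 76.6% of the genes tested in knu-2 and above 31.8% in Ler. AGO9, at 98.6% in knu-2 and 98.5% in Ler on the same scale, was among the most abundant transcripts of both genotypes. AGO5 stood at 99.1% in knu-2 and 95.7% in Ler.

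Ratios within a library, chosen after the values were seen, do not depend on scaling between libraries either. The ratio of AGO5 to AGO9 in counts per kilobase was 1.44, 1.61 and 1.47 in knu-2, against 0.459, 0.488 and 0.439 in Ler. The gene in excess was thus AGO5 in every knu-2 library and AGO9 in every Ler library. The ratio of AGO5 to AGO1 was 2.55, 2.20 and 2.41 in knu-2, against 0.741, 0.779 and 0.778 in Ler, and again lay above 1 in knu-2 and below 1 in Ler. The ratio of AGO4 to AGO9 was 0.636, 0.768 and 0.725 in knu-2, against 0.239, 0.296 and 0.271 in Ler. AGO9 was the more abundant of this pair in all 6 libraries. The ratio of AGO10 to AGO1 was 0.137, 0.146 and 0.133 in knu-2, against 0.0121, 0.0231 and 0.0199 in Ler, and the ratio of AGO4 to AGO6 was 39.5, 67.3 and 82.5 in knu-2, against 15.8, 13.2 and 12.8 in Ler. In each of the 5 ratios the knu-2 libraries lay above the Ler libraries. Each ratio set a member called higher over one not called or called lower. The shared direction therefore followed from the choice of pairs, and the ratios add no separate evidence.

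Genes that make the small RNAs ARGONAUTE proteins carry moved both ways. Of 17 listed, 8 rose, 6 fell and 3 were not called, which is 82.4% called against 48.1% of all genes tested, and the median log2 fold change was -0.36 against 0.10 over all genes. This list and those that follow were chosen with earlier results of these data known. Their shares of calls describe the listed genes and are not independent evidence. DCL1, the dicer that makes most microRNAs, was at 91.3, 88.0 and 67.5 CPM in knu-2, against 19.9, 19.4 and 17.0 CPM in Ler. Every knu-2 library lay above every Ler library, and the log2 fold change was 2.13 (SE 0.19, adjusted p = 1.27e-05). DCL3, which makes the small interfering RNAs that AGO4 and AGO6 bind, was at 97.5, 70.4 and 105 CPM in knu-2, against 10.8, 17.9 and 17.6 CPM in Ler. The groups did not overlap, and its log2 fold change was 2.56 (SE 0.24, adjusted p = 1.73e-05). RDR6 and SDE5, which act in the making of the double-stranded precursors of trans-acting small interfering RNAs, fell. RDR6 was at 48.9, 30.3 and 32 CPM in knu-2, against 118, 91.5 and 115 CPM in Ler, with a log2 fold change of -1.55 (SE 0.21, adjusted p = 0.000151). SDE5 was at 23.1, 11.7 and 13.8 CPM in knu-2, against 59.7, 74.1 and 92.8 CPM in Ler, with a log2 fold change of -2.22 (SE 0.27, adjusted p = 8.43e-05). Both genes were lower in every knu-2 library than in any Ler library.

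Genes that load ARGONAUTE proteins with small RNAs, bring them to the nucleus or act on the stability of small RNAs moved both ways. Of 13 listed, 2 rose, 3 fell and 8 were not called, at a median log2 fold change of -0.06. That is 38.5% called, against 48.1% of all genes tested. Across the alternatives 4 to 7 were called, with 7 when there was no scaling beyond library totals. SQN, a cyclophilin that helps AGO1 take up small RNAs together with HSP90, was at 65.6, 50.3 and 62.4 CPM in knu-2, against 21.2, 29.4 and 25.9 CPM in Ler, and all knu-2 values were above all Ler values. Its log2 fold change was 1.22 (SE 0.19, adjusted p = 0.000362). HSP90.4, a chaperone gene, fell, with a log2 fold change of -0.85 (SE 0.22, adjusted p = 0.00785). The more abundant HSP90.2 (adjusted p = 0.885) and HSP90.3 (adjusted p = 0.443) overlapped between the genotypes and were not called. HSP90.1 was lower in every knu-2 library but was not called (adjusted p = 0.0782). SAD2, an importin gene also known as EMA1 that limits the loading of AGO1, was at 94.0, 45.0 and 56.2 CPM in knu-2, against 199, 186 and 205 CPM in Ler. It was lower in every knu-2 library, and its log2 fold change was -1.60 (SE 0.25, adjusted p = 0.000358). URT1, which adds uridines to RNA ends, rose, with a log2 fold change of 1.01 (SE 0.16, adjusted p = 0.000404).

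Among the partners of AGO4, AGO6 and AGO9 in RNA-directed DNA methylation, 6 of 17 rose, 3 fell and 8 were not called, which is 52.9% called, near the 48.1% of all genes tested, at a median log2 fold change of 0.45. NRPE1, the largest subunit of RNA polymerase V, whose transcripts AGO4 meets on chromatin, was at 329, 269 and 388 CPM in knu-2, against 69.8, 63.0 and 115 CPM in Ler. The genotypes did not overlap, and the log2 fold change was 1.99 (SE 0.25, adjusted p = 8.33e-05). IDN2, a protein that binds double-stranded RNA, rose, with a log2 fold change of 1.36 (SE 0.17, adjusted p = 9.79e-05). SUVH2, which takes RNA polymerase V to methylated DNA, was at 4.90, 9.27 and 7.34 CPM in knu-2, against 38.8, 29.3 and 31.5 CPM in Ler. It was lower in every knu-2 library, with a log2 fold change of -2.21 (SE 0.27, adjusted p = 7.27e-05). CLSY4, a chromatin remodeller that guides RNA polymerase IV, fell, with a log2 fold change of -1.64 (SE 0.23, adjusted p = 0.000161). In place of 9, 5 of the 17 were called without Ler replicate 1, 2 or 3 or without knu-2 replicate 1, and NRPE1, IDN2, SUVH2 and CLSY4 were called in each of these fits.

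Known targets of small RNAs bound by AGO1, AGO7 and AGO10 were measured as well. The list held 14 genes, of which 8 were counted. The other 6, precursor genes of microRNAs and trans-acting small interfering RNAs, were not among the genes counted in the libraries. Of the 8 counted, 5 rose in knu-2, and the other 3 missed the threshold, which is 62.5% called higher, where 23.6% of all genes tested were. As the list was chosen with earlier results of these data known, that share is a description only. The median log2 fold change over the 8 was 0.82. The HD-ZIP III genes, whose transcripts carry the miR166a sites, gave 3 rises among 5, which are counted in that share. PHB was at 31.8, 30.7 and 28.7 CPM in knu-2, against 9.76, 12.1 and 10.9 CPM in Ler, and PHV was at 53.1, 42.3 and 41.2 CPM in knu-2, against 18.7, 24.1 and 19.7 CPM in Ler. CNA was at 28, 22.9 and 39.0 CPM in knu-2, against 13.4, 14.6 and 16.5 CPM in Ler. In these 3 genes every knu-2 library lay above every Ler library. Libraries of the genotypes lay apart, in either direction, in 59.1% of all genes tested. A link between these genes and AGO10 was not tested. PHB had a log2 fold change of 1.48 (SE 0.21, adjusted p = 0.000164), PHV one of 1.13 (SE 0.19, adjusted p = 0.00063) and CNA one of 1.02 (SE 0.24, adjusted p = 0.00459). REV was at 14.8, 15.1 and 15.5 CPM in knu-2, against 10.2, 12.6 and 8.84 CPM in Ler, not called at a log2 fold change of 0.52 (SE 0.25, adjusted p = 0.111). ATHB8 was at 3.22 ± 0.227 CPM in knu-2 and 2.34 ± 1.83 CPM in Ler (SD, n = 3 each) and was not called. ARF3, an auxin response factor gene regulated through AGO7, was at 31.4, 32.8 and 31.4 CPM in knu-2, against 10.2, 20.7 and 14.1 CPM in Ler, and the libraries did not overlap. Its log2 fold change was 1.08 (SE 0.26, adjusted p = 0.0048). REV, ATHB8 and ARF4 were the 3 not called.

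**Figure D4:**
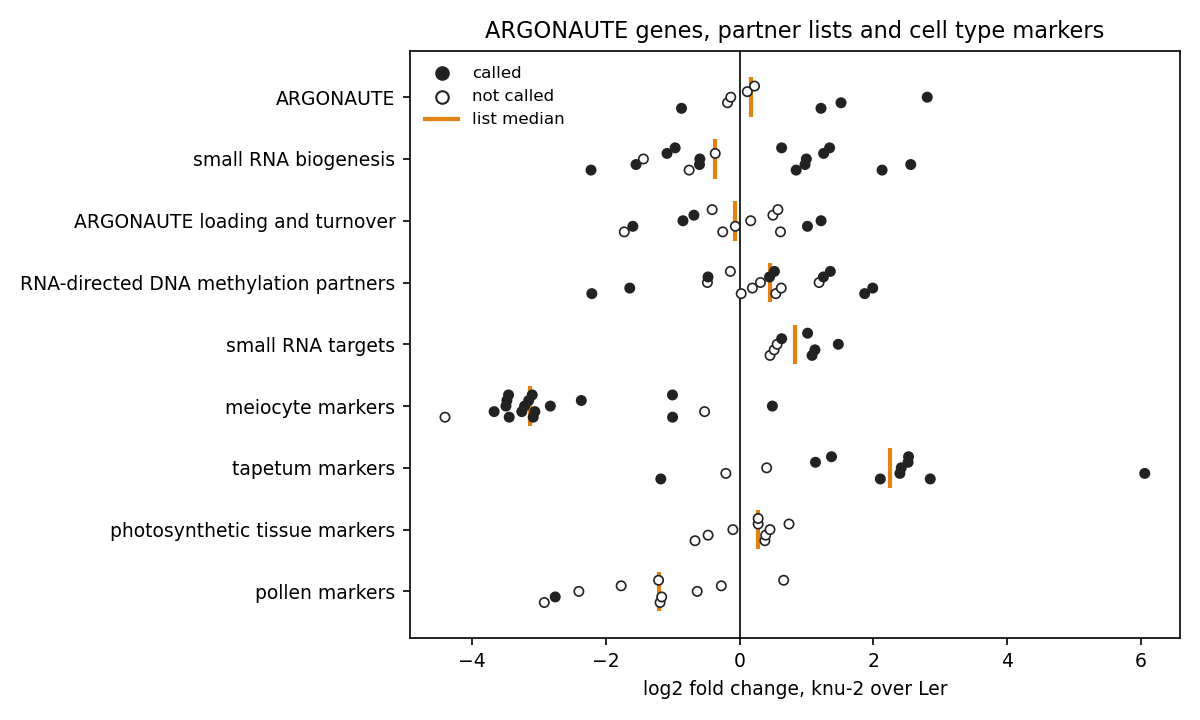
Log2 fold change of knu-2 over Ler for the tested genes of each list, 1 point per gene, filled where called, with the median of each list as an orange bar. The ARGONAUTE genes lie on both sides of 0, the meiocyte markers mostly far below it and the tapetum markers mostly above it.

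The genes with the most similar pattern to the 3 most abundant members were found by the root mean square difference of centred log2 CPM over the 6 libraries, as a description. Nearest to AGO5 were AT5G11930 at 0.0716, AT1G07030 at 0.0735 and ADSS (AT3G57610), a gene of purine synthesis, at 0.0791. Nearest to AGO9 were UBA1A (AT2G22090) at 0.0586, AT1G79150 at 0.0736 and EXPA9 (AT5G02260) at 0.0783. EXPA9 averaged only 0.756 CPM in knu-2 and 0.885 CPM in Ler. As 0.5 CPM was added before logs were taken, the pattern of a gene this low is flattened. AT5G11930, at 8.74 CPM in knu-2 and 2.61 CPM in Ler on average, is also affected, though less. Its fitted log2 fold change was 1.74, against 1.52 for AGO5. Nearest to AGO1 were SAC9 (AT3G59770) at 0.0414, AT5G52980 at 0.0437 and AT3G28720 at 0.0514. All 6 libraries enter each value, and no member of the family or of the partner lists was among these 9 genes.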

How the data were processed

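Polyadenylated RNA of cells collected as meiocytes was sequenced from knu-2 and Ler, 3 libraries each, with groups and replicate numbers from the labels. The authors deposited whole-number counts per gene without normalization, as judged from the values, and gene lengths in base pairs as another value. Neither the labels nor the files name the aligner, counting tool, strand setting or genome build. The TAIR10.1 annotation held 27445 of the 27655 genes, and 99.4% of these had its merged exon length, so its coordinates were used. No strand-marking step is named in the labels' protocols.

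The filterByExpr filter kept 18422 genes for testing, and 0.0769% of counts fell on the rest. TMM factors were 1.06 to 1.21 for knu-2 and 0.870 to 0.914 for Ler. A robust quasi-likelihood fit with genotype as its only term was run on all genes in edgeR 4.0.16 (R 4.3.3), and standard errors come from its test statistic. DESeq2 1.42.0, limma-voom (limma 3.58.1), other scalings and filters, a replicate block and leaving out each library were alternatives. The fits were tested on simulated counts in which few genes were changed, in both directions. That run therefore does not test the scaling between genotypes when many genes differ, as here. Totals and shares were compared by exact permutation over libraries. Coding sequences were aligned with mafft 7.526. Limits from 3 counts cover counting error only. Replicates of 1 genotype differed by at least 20.3 in chi-square per degree of freedom, far more than sampling noise. The labels call them biological replicates without naming separate plants, so p-values measure the spread between these libraries.

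The named genes are the 10 members, KNU, up to 4 genes with the smallest p in each partner list and the nearest genes by pattern. REV, ATHB8, ARF4, HSP90.1, HSP90.2, HSP90.3 and the 4 tapetum markers without counts were named after their values were seen. The members and lists were chosen with earlier results of these data known.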

Additional observations from a re-analysis of the deposited data

How the results depend on the processing

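Across 13 alternatives AGO4, AGO5 and AGO10 kept their direction and their call, with log2 fold changes of 1.01 to 1.52, 1.36 to 1.82 and 2.62 to 3.11. The number of members called was 3 to 4, and it was 3 where AGO6 lost its call. With no scaling beyond library totals, AGO1 was at 0.18 and AGO9 at 0.12, the reverse of the scaled direction, the median shift over all genes was 0.32 in log2 units, and 63.7% of calls were higher against 49.2% with scaling. Leaving out 1 library at a time turned the direction of AGO2, AGO7 and AGO9, which were not called. AGO1, also not called, kept its direction, at -0.29 to -0.0095. AGO7 ranged from -0.57 to 0.53 (-0.57 without knu-2 replicate 1 and -0.14 without Ler replicate 1). AGO2 ranged from -0.26 to 0.33 (-0.26 without knu-2 replicate 3 and -0.0069 without Ler replicate 2). AGO9 ranged from -0.35 to 0.021, the upper value without knu-2 replicate 2. The cause was not tested. The difference in the AGO7 share ranged from -0.0395 to 0.00334 percentage points with 1 library left out, and the RNA-directed DNA methylation list had 5 to 8 calls against 9. With 1 library fewer, 7284 to 8714 genes were called against 8856 with all 6.

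With a replicate block the same number of members, 4, was called, and 8846 genes were called against 8856. The difference in the family total had an exact p of 0.25 by sign flips of pairs, the smallest that 3 pairs allow. Deviations from the genotype mean correlated at -0.101, 0.148 and 0.0651 for same-numbered libraries, and not every library correlated best with its own number, so the numbers were not taken as pairs.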
